A study of Mus musculus with 2 samples.

Results

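Matrix metalloproteinases (MMPs) are zinc-dependent enzymes that cut collagens, other matrix proteins and many secreted or cell-bound factors, and tissue inhibitors of metalloproteinases (TIMPs) bind their active site. The 10 genes of this group were examined here in cells sorted from mouse tumors. The group holds 7 MMPs (Mmp2, Mmp8, Mmp9, Mmp12, Mmp13, Mmp14 and Mmp19) and 3 TIMPs (Timp1, Timp2 and Timp3), chosen by name from the gene symbols of the deposited tables. They are 10 of 22886 genes, each had 1 row in each table, and 8 averaged 1 RPKM or more over both libraries, the filter that 10982 genes passed. RPKM are read numbers divided by transcript length and library size, so that levels of different genes can be compared.

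The data are 2 RNA sequencing libraries of wild type C57BL/6 mice that bore subcutaneous tumors of LLC (Lewis lung carcinoma, a mouse lung tumor line). The vehicle library is from mice injected with vehicle and the clodronate library from mice injected with clodronate, a drug that kills phagocytes once they have taken it up and that is used to deplete macrophages. Both hold polyA RNA of cells that the labels call aerobic tumor cells sorted by FACS. The labels used here give no age, dose, schedule, sorting marker or number of mice pooled, and a growth protocol that names EML cells, a blood progenitor line, conflicts with the other labels. With 1 library per condition no difference has a replicate check, no p-value is given, and what the injection did and how the mice, sorts or preparations differed by themselves cannot be told apart.

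In tumors, proteases of this family are made by macrophages, neutrophils, fibroblasts and tumor cells alike, and several are secreted as inactive precursors that other proteases open. Mmp12 is the elastase of macrophages, Mmp8 the collagenase of neutrophil granules, and Mmp13 the main interstitial collagenase of rodents. Mmp14 sits in the cell membrane, where it is known to activate the Mmp2 precursor in a complex that includes Timp2.

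Macrophage genes were high in both libraries, which bears on which cells the values describe. All 10 macrophage markers had at least 10 RPKM in both. With clodronate 8 stood higher and 2 lower, beside 51.6% and 48.4% of all genes that passed the filter. Of the 8, C1qb (3372 RPKM with vehicle and 3384 RPKM with clodronate) and Csf1r (446 and 465 RPKM) were nearly equal. The 2 lower were C1qc (3984 RPKM with vehicle and 2043 RPKM with clodronate) and Adgre1 (357 and 261 RPKM). The summed level was 21642 RPKM with vehicle and 21282 RPKM with clodronate, of which Lyz2 (lysozyme of myeloid cells) made up 10534 and 11189 RPKM. Of 6 epithelial markers 3 were listed at 0 in both libraries, Epcam among them, and the summed level was 12.8 and 10.97 RPKM. The others were Cdh1 (6.14 RPKM with vehicle and 6.44 RPKM with clodronate), Krt8 (3.67 and 1.33 RPKM) and Krt18 (2.97 and 3.19 RPKM). Of 11 neutrophil markers 10 were found, and 7 were listed at 0 in both, S100a9, Elane and Mpo among them, and the summed level was 43.1 and 45.1 RPKM. A 0 here can be a failed estimate, so these lists are not read as showing that such cells were absent. The 10 fibroblast markers summed to 161 RPKM with vehicle and 77.4 RPKM with clodronate, and Pdgfrb was listed at 0 with vehicle. Of the 9 that averaged 1 RPKM or more, 8 stood lower in the clodronate library, beside 48.4% of all genes. In bulk RNA of this kind, fewer cells of a type and less RNA per cell cannot be told apart.

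Of the members, Mmp13, Mmp12 and Mmp8, belong to a cluster of 10 MMP genes on chromosome 9, which runs from 7272514 to 7699416 (427 kb) in mm9, the build that the submitters' processing notes name. Mmp13 and Mmp8 are the members with the largest differences between the libraries, and they differed in opposite directions. The 250 bases before their start sites are shown, with those of Mmp12 between them, as RefSeq has them on GRCm38.p6. All lie on the plus strand and are written 5′ to 3′, Mmp13 at chr9:7272264-7272513, Mmp12 at chr9:7347124-7347373 (the downstream of its listed starts) and Mmp8 at chr9:7558179-7558428. Capitals mark TGANTCA, where N is any base, a pattern that reads the same on both strands. It includes TGACTCA and TGAGTCA, the letters typically bound by AP-1 (the Fos and Jun factors), but is wider than these.
Mmp13: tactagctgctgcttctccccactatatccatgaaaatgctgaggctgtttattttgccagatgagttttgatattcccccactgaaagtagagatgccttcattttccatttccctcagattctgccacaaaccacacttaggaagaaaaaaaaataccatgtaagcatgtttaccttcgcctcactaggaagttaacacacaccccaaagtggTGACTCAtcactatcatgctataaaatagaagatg
Mmp12: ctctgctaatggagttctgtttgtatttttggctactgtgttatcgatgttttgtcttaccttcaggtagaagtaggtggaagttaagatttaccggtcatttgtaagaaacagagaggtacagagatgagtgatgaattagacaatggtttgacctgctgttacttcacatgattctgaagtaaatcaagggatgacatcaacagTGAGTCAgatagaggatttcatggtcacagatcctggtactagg
Mmp8: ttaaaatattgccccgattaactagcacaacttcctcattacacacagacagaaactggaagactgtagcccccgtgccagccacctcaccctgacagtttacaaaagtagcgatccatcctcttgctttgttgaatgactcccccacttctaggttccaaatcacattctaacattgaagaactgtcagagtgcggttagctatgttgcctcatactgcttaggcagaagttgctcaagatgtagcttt

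The letters TGANTCA stood in the windows of Mmp13, where they begin 35 bases before the start, and of Mmp12, where they begin 44 bases before it, and not in that of Mmp8. The upstream window of Mmp12, chr9:7344147-7344396, does not hold them. Across the cluster they were present in at least 1 window of 8 of the 10 genes (for Mmp12 and Mmp7 in 1 of 2 windows), all but Mmp8 and Mmp27, and in no window of the 12 other MMP and TIMP genes with a promoter sequence. In Mmp20 the match reads TGAATCA. Of all 27025 genes with windows of this length, 7.82% held TGANTCA in at least 1 window. The letters TATAAA, searched on both strands, stood before 7 of the 10 genes of the cluster and before 14.3% of all genes. The windows shown were picked with the values of Mmp13 and Mmp8 known. Among genes of the cluster that averaged 1 RPKM or more, Mmp13, Mmp12 and Mmp3 hold the letters and Mmp8 and Mmp27 do not. In that order, the clodronate level was 4.001, 1.13, 0.590, 0.303 and 1.27 times the vehicle level. A match describes the letters of a window and not a site in use, and a part of the letters in the differences was not tested. The promoter table used holds 7 of the 10 members, and Mmp2, Mmp9 and Mmp19 are not in it.

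The same members had the highest levels in both libraries. Timp2, an inhibitor of many MMPs and a partner of Mmp14, had the highest level of the 10 members, with 399 RPKM with vehicle and 354 RPKM with clodronate. Mmp14, the membrane-bound collagenase, came next with 231 RPKM with vehicle and 199 RPKM with clodronate. Both stood within the upper 5% of the genes kept in either library, Timp2 at 2.11% and 2.35% from the top and Mmp14 at 3.56% and 4.07%. The ratio of the clodronate over the vehicle value was 0.888 for Timp2 and 0.861 for Mmp14, so that both were slightly lower in the clodronate library.

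A middle group held Mmp19, Mmp12 and Timp1. Mmp19, a secreted MMP that cuts basement membrane proteins, had 45.3 RPKM with vehicle and 53.7 RPKM with clodronate. Mmp12 had 37.1 RPKM with vehicle and 41.8 RPKM with clodronate. Timp1, an inducible secreted inhibitor, had 29.0 RPKM with vehicle and 45.2 RPKM with clodronate, which placed it below Mmp12 in the first and above it in the second. The remaining members, Mmp9, Mmp13, Mmp8, Mmp2 and Timp3, all stayed under 8 RPKM in both libraries.

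**Figure D1:**
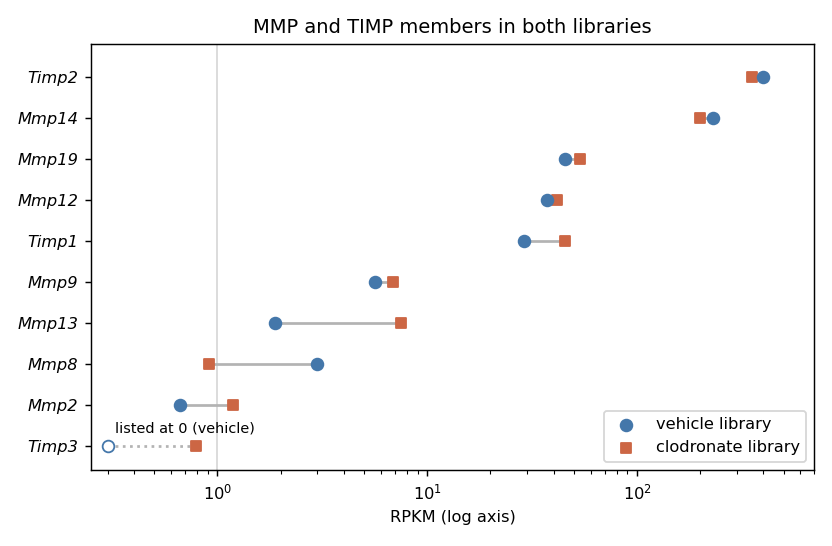
RPKM of the 10 members (log axis) in the vehicle library (circles) and the clodronate library (squares), 1 library each, ordered by mean level, with a line joining the values of a gene and a grey line at 1 RPKM. Timp2 and Mmp14 stand highest in both libraries, Mmp13 (1.88 and 7.52 RPKM) and Mmp8 (2.999 and 0.909 RPKM) lie farthest apart in opposite directions, and the open circle of Timp3 stands for a value listed at 0.

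Summed over the 7 MMPs, the level was 324 RPKM with vehicle and 310.5 RPKM with clodronate, a ratio of 0.958. Mmp14 made up 71.1% of this sum in the vehicle and 63.9% in the clodronate library. The 3 TIMPs summed to 428 and 400.0 RPKM, a ratio of 0.935, of which Timp2 made up 93.2% and 88.5%. The TIMP sum was 1.32 times the MMP sum in the vehicle and 1.29 times in the clodronate library. These are sums of mRNA levels, and they say nothing of how much protein or active enzyme was present.

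How many reads stand behind a value was estimated from the low values of the tables. RPKM times transcript length (in kb) should take whole multiples of what 1 read is worth, and its most frequent value among low loci was 0.0777 in the vehicle and 0.0963 in the clodronate library. Within 5% of this value lay 100 and 154 loci, within 5% of 2 times it 62 and 116, and within 5% of 1.5 times it 3 and 10. This corresponds to about 12900000 reads for vehicle and 10400000 for clodronate. Read numbers given below are these estimates, and 95% intervals of a ratio are exact (Clopper-Pearson) intervals made from them, which cover counting error only and not the spread between mice or preparations.

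Mmp13 had the largest difference of the members. Its level was 1.88 RPKM with vehicle and 7.52 RPKM with clodronate, from about 65 and 209 reads. The RPKM ratio was 4.001 (95% interval 3.003 to 5.35), and the log2 ratio after adding 1 RPKM to both values was 1.57. That scale understates differences of low genes, and 3-fold on it is a log2 ratio just above that of Mmp13.

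Mmp8 differed in the other direction. Its level was 2.999 RPKM with vehicle and 0.909 RPKM with clodronate, from about 94 and 23 reads, and the vehicle value was 3.30 times the clodronate value (95% interval 2.07 to 5.46). Its log2 ratio with 1 RPKM added was -1.07, and it passed the filter on low values through the vehicle library, where it was high. The neutrophil markers that were listed above 0 did not share 1 direction, with S100a8 at 12.7 RPKM with vehicle and 23.1 RPKM with clodronate, Csf3r at 26.4 and 19.3 RPKM and Cxcr2 at 4.06 and 2.69 RPKM. Their part in the Mmp8 difference was not tested.

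Mmp9, a gelatinase that neutrophils and macrophages can both release, had 5.66 RPKM with vehicle and 6.87 RPKM with clodronate, from about 231 and 227 reads. The RPKM ratio was 1.21 (95% interval 1.01 to 1.47), and the lower end of the interval lies close to equal levels. Mmp2, the other gelatinase and typically a product of fibroblasts, had 0.665 RPKM with vehicle and 1.19 RPKM with clodronate, from about 26 and 38 reads, with a ratio of 1.79 (95% interval 1.07 to 3.11). Its mean of 0.927 RPKM was below the filter, so it enters no count. The level of Mmp14 was 347 times that of Mmp2 in the vehicle and 167 times in the clodronate library.

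Of the inhibitors listed above 0 in both libraries, Timp1 and Timp2, Timp1 differed more. The ratio was 1.56 (95% interval 1.35 to 1.81, from about 329 and 414 reads) and the log2 ratio 0.62. As Timp2 stood slightly lower in the clodronate library, the level of Timp2 was 13.8 times that of Timp1 in the vehicle and 7.84 times in the clodronate library. Timp3, an inhibitor that binds to the matrix and also acts on ADAM proteases, was listed at 0 with vehicle and had 0.794 RPKM with clodronate, from about 39 reads. A value of 0 in these tables can be a failed estimate and is not read as absence, so no fold is given for Timp3, and its mean of 0.397 RPKM was below the filter.

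Timp1 and Timp3 lie inside introns of synapsin genes, and the tables give each pair the same locus, Timp1 and Syn1 on chromosome X from 20425669 to 20498044 and Timp3 and Syn3 on chromosome 10 from 85511491 to 85961641 (mm9). The sources used here do not say whether strand was used, so that reads of a pair may not be fully told apart. Syn1, a protein of nerve terminals, had 5.86 RPKM with vehicle and 16.9 RPKM with clodronate, a higher value in the same library as for Timp1. Syn3 had 0.577 and 0.249 RPKM. The part of the synapsin loci in the TIMP values was not tested.

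Set against all genes, the members as a group were not far from the middle. Of the 8 that passed the filter, 5 stood higher and 3 lower in the clodronate library, beside 51.6% and 48.4% of all genes, and the median log2 ratio was 0.20, beside 0.019 over all 10982 genes. No member was at least 3-fold higher or lower, where 2.86% and 2.32% of all genes were. At least 2-fold, 1 member was higher (Mmp13, beside 6.95% of all genes) and 1 was lower (Mmp8, beside 6.77%). With 0.1 RPKM added in place of 1, Mmp13 (log2 ratio 1.94) and Mmp8 (-1.62) passed 3-fold, beside 4.84% and 4.37% of all genes. After a correction for GC content and length, Mmp13 passed 3-fold as well, with a log2 ratio of 1.82, and no member passed it downward, beside 2.88% and 1.82% of all genes.

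**Figure D2:**
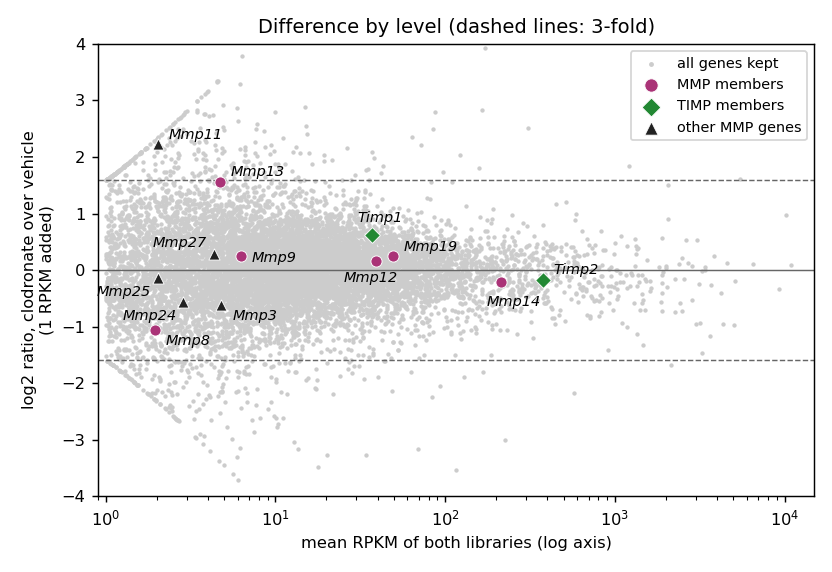
Log2 ratio, clodronate over vehicle (1 RPKM added), against the mean RPKM of both libraries (log axis) for all 10982 genes kept (grey), the MMP members (circles), the TIMP members (diamonds) and other MMP genes (triangles), with dashed lines at 3-fold. Mmp13 lies just under the upper line, Mmp11 above it, the members above 30 RPKM lie between -0.21 and 0.62, and 52 genes beyond 4 on the log2 scale are not drawn.

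None of the other 17 genes of the family had a listed value above 6.04 RPKM in either library, and a 0 among them is not read as absence. In both libraries 8 were listed at 0 (Mmp1a, Mmp1b, Mmp7, Mmp15, Mmp16, Mmp17, Mmp23 and Timp4). Mmp10, Mmp20, Mmp21 and Mmp28 were listed at 0 with vehicle, and with clodronate they had between 0.0579 and 0.430 RPKM. The 5 that passed the filter were Mmp3, Mmp11, Mmp24, Mmp25 and Mmp27, and the highest value was that of Mmp3 with vehicle.

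Mmp11 (stromelysin-3) was the only gene of the family past 3-fold with 1 RPKM added, where 2.86% of all genes were at least 3-fold higher. It had 0.0710 RPKM with vehicle and 4.001 RPKM with clodronate, from about 2 and 95 reads, and the log2 ratio was 2.22. The RPKM ratio was 56.4, with a wide 95% interval of 15.9 to 493 because the vehicle value rests on so few reads. Mmp11 passed the filter only through the clodronate library, where it was high. Mmp11 is best known from stromal fibroblasts around tumors. Of the fibroblast markers, Dcn was at 77.3 and 28.4 RPKM, Col3a1 at 62.1 and 34.4 RPKM, and the median log2 ratio was -0.79 over 9 genes. Col1a1, at 2.32 and 5.40 RPKM, was the marker of these 9 that stood higher in the clodronate library. The part of fibroblasts in the Mmp11 difference was not tested.

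Mmp3 (stromelysin-1) had 6.04 RPKM with vehicle and 3.56 RPKM with clodronate, a ratio of 0.590 (95% interval 0.436 to 0.799). Mmp24, a membrane-type MMP, had 3.63 and 2.12 RPKM, a ratio of 0.586 (0.454 to 0.751). Mmp25, the membrane-type MMP of leukocytes, had 2.17 and 1.88 RPKM, and its ratio of 0.864 had an interval (0.647 to 1.14) that includes equal levels. Mmp27 had 3.85 and 4.90 RPKM, and no transcript length was found for it.

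Along the chromosome 9 cluster, the 5 genes that averaged 1 RPKM or more did not all share a direction, and in genome order the first pair stood higher in the clodronate library, the next pair lower and the last gene higher. Mmp13 at the start of the cluster had 4.001 times its vehicle level in the clodronate library, Mmp12, next to it, 1.13 times, Mmp3 0.590 times, Mmp8 0.303 times and Mmp27, next to Mmp8, 1.27 times. The other 5 genes of the cluster were listed at 0 or under 0.3 RPKM. Mmp12 had the highest level of the cluster in both libraries, and it differed least of these 5 genes.

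**Figure D3:**
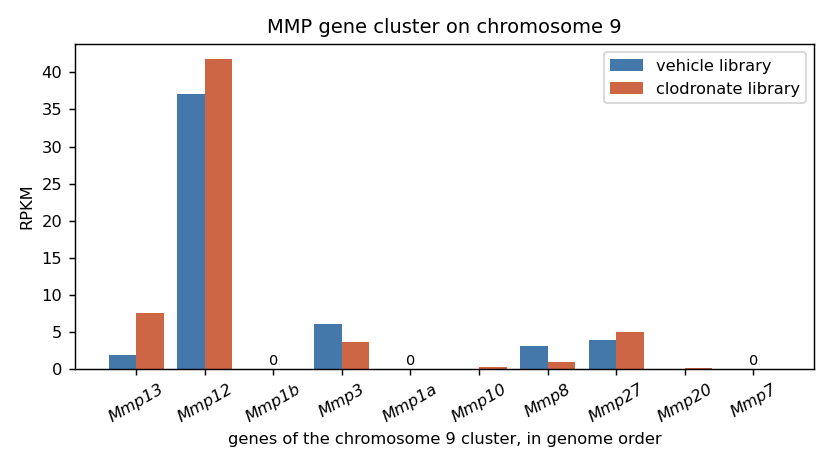
RPKM in the vehicle library (blue) and the clodronate library (orange) of the 10 MMP genes of the chromosome 9 cluster, in genome order, with a 0 where both are listed at 0. Mmp12 is the highest bar pair (37.1 and 41.8 RPKM), and the orange bar is the higher one for Mmp13, Mmp12 and Mmp27 and the lower one for Mmp3 and Mmp8.

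The list of activators and inhibitors holds proteins that switch MMPs on, hold them at the surface or clear them, and inhibitors of MMPs or of the proteases that activate them. Of its 14 genes 7 passed the filter, of which 6 were higher in the clodronate library (beside 51.6% of all genes) and 1 lower, with a median log2 ratio of 0.78. Among the 6 was an inhibitor, Serpinb2, which acts on urokinase, was named after its values were seen and had 1.39 RPKM with vehicle and 3.64 RPKM with clodronate. Plau, which encodes urokinase, the protease that turns plasminogen into plasmin, had 19.0 RPKM with vehicle and 65.2 RPKM with clodronate. Its log2 ratio of 1.73 was past 3-fold, the only one of this list, beside 2.86% of all genes. Its receptor Plaur had 333 and 283 RPKM and so stood lower in the clodronate library. Plg, the gene of plasminogen itself, was listed at 0 in both.

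Furin, which cleaves the precursors of Mmp14 and Mmp11, had 72.9 RPKM with vehicle and 135 RPKM with clodronate. Lrp1, an endocytic receptor that takes up MMPs and MMP-TIMP complexes, had 225 and 386 RPKM. Bsg, which encodes an MMP inducer on the cell surface, had 86.6 and 104 RPKM, and Cd44, a surface anchor for Mmp9 and Mmp14, had 292 and 352 RPKM. Reck, a membrane-bound MMP inhibitor, was listed at 0 with vehicle and had 0.0210 RPKM with clodronate, and A2m, the circulating protease trap, was listed at 0 in both.

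Among ADAM proteases, relatives that shed surface proteins, 7 of 10 genes passed the filter, 4 higher and 3 lower, beside 51.6% and 48.4% of all genes. The median log2 ratio was 0.15. Adam8 had 123 RPKM with vehicle and 228 RPKM with clodronate, the largest RPKM ratio (1.85) of those named. Adam15 had 158 and 209 RPKM, Adam17, the sheddase of TNF that Timp3 can inhibit, 41.98 and 53.5 RPKM, and Adam9 76.6 and 85.3 RPKM. Adam10 had 59.2 and 55.4 RPKM and Adam19 20.1 and 16.1 RPKM. Adamts1, also lower, differed most of the 7 (log2 ratio -1.25) and is given under other observations. None passed 3-fold, and the log2 ratio of Adam8 was 0.88.

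Matrix proteins and other substrates did not share a direction. Of 14 genes 12 passed the filter, 4 higher and 8 lower in the clodronate library, beside 51.6% and 48.4% of all genes. The median log2 ratio was -0.20. Fn1, which encodes fibronectin and was the highest of the list, had 1530 RPKM with vehicle and 2269 RPKM with clodronate, and Spp1 (osteopontin) had 406 and 755 RPKM. Thbs1 (thrombospondin-1) had 413 and 343 RPKM, Nid1 (nidogen of basement membranes) 15.2 and 8.76 RPKM and Sparc, a collagen-binding protein, 15.9 and 14.1 RPKM. The fibrillar collagen gene Col3a1 and the small proteoglycan gene Dcn, given above among fibroblast markers, stood lower too.

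**Figure D4:**
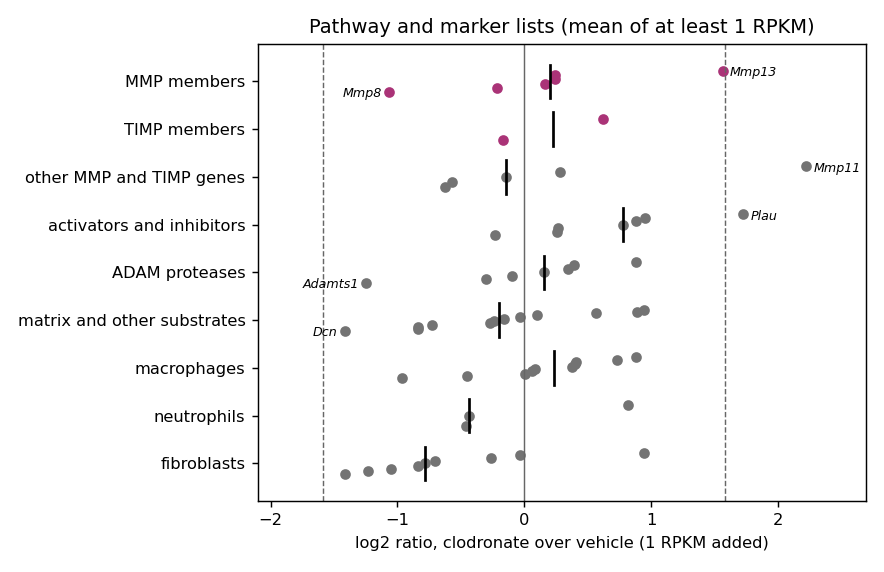
Log2 ratio, clodronate over vehicle (1 RPKM added), for each gene that averaged 1 RPKM or more in the MMP and TIMP members, the other family genes, the lists of related genes and 3 marker lists, with black bars at the medians and dashed lines at 3-fold. Mmp11 and Plau lie past the upper line, Mmp13 just under it, and the median of the fibroblast markers is -0.79.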

How the data were processed

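RNA was sequenced from 1 vehicle and 1 clodronate library, grouped by their labels. The authors deposited RPKM values for 23170 loci with Cufflinks identifiers, RefSeq accessions and symbols. The submitters' processing notes name CASAVA 1.8.2, TopHat2 2.0.9, Bowtie 0.12.9, Cufflinks 2.2.1, Cuffdiff and mm9, and strand use is not given in the sources used here.

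Rows of the same Symbol were summed, and 26 symbols that had become numbers were replaced by accessions. Log2 ratios are of clodronate RPKM + 1 over vehicle RPKM + 1, for genes that averaged 1 RPKM or more, and 3-fold was the threshold. RPKM are not counts, so no count model was used. Read estimates used the longest GENCODE M21 transcript with a listed accession, found for 98.7% of the genes kept. Cufflinks shortens the length it divides by, so estimates for short transcripts such as Timp1 are approximate. Starts of loci were changed to count from 1, since they count from 0 in the tables.

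Members and lists were chosen with earlier results of these data known. Named were all members, other family genes that averaged 1 RPKM or more and genes of the 3 lists of related genes that averaged 10 RPKM or more or were past 3-fold. In the list of activators and inhibitors 1 gene is not reported here and was left out of its counts and median. Others are named as listed at 0 or chosen after their values were seen. Marker lists of endothelial (8 genes, 3.34 and 7.90 RPKM summed) and T and NK cells (6 genes, 0.837 and 2.02 RPKM) were also read. Steps were tested on simulated data. Python 3.11.15, numpy 2.4.6, pandas 2.3.3, scipy 1.17.1 and matplotlib 3.10.9 were used.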

Additional observations from a re-analysis of the deposited data

How the results depend on the processing

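With 1 library per condition no library could be left out and no replicate spread exists, and the depth was only estimated. The alternatives were a pseudocount of 0.1 RPKM, no filter, a minimum of 5 RPKM, centring on the median, the same upper quartile, the highest row of each Symbol and a 2-fold threshold. The correction for GC content and length was chosen after seeing the data. The count of members at least 3-fold higher, 0 in the report, was 1 (Mmp13) with a pseudocount of 0.1 RPKM, at 2-fold and after the correction. The count at least 3-fold lower, also 0, was 1 (Mmp8) with a pseudocount of 0.1 RPKM and at 2-fold. A smaller pseudocount and a lower threshold let more genes pass by construction. The median log2 ratio of the members lay between 0.12 and 0.24, and the summed ratios were 0.917 for MMPs and 0.896 for TIMPs with the same upper quartile. Filters and the highest row cannot change the ratio of a single member. Of the 32 values of single members under the other alternatives, 30 moved by at most 0.25 on the log2 scale and 0 changed sign. Centring and the same upper quartile shift all members by nearly the same small amount, so their values say little about stability. A move of 0.25 is also larger than the size of the log2 ratios of Mmp9, Mmp19, Mmp12, Mmp14 and Timp2. The correction for GC content and length took Mmp9 from 0.24 to 0.059 and Mmp12 from 0.17 to 0.35. At the minimum of 5 RPKM Mmp8 and Mmp13 gave no value. Timp3 was left out of all medians.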

Other observations

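The genes in this paragraph are of the same lists but outside the naming rule, and were picked with their values in view. The secreted proteases that cut proteoglycans did not share a direction. Adamts1 had 6.87 RPKM with vehicle and 2.32 RPKM with clodronate (log2 ratio -1.25), and Adamts5 had 0.432 and 0.0113 RPKM, from about 60 reads and 1 read. Adamts4 had 0.167 and 0.410 RPKM, from about 9 and 19 reads. Postn, a matrix protein of activated fibroblasts, had 2.21 and 0.364 RPKM. Cdh5, the cadherin of endothelial junctions, had 0.480 and 3.24 RPKM, and Pecam1, also of endothelial cells, had 1.24 and 3.33 RPKM. These 2 were the endothelial markers that averaged 1 RPKM or more, and both stood higher, beside 51.6% of all genes. Below the filter, Vwf had 0.967 and 0.443 RPKM and Kdr 0.650 and 0.831 RPKM. No explanation was tested for these values.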
